A study of Mus musculus with 6 samples.

Results

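These data concern 23087 regions of the mouse genome that were listed as bound by WDR5 in embryonic stem cells rescued with mutant WDR5, that were absent from the WDR5 list of cells rescued with wild-type WDR5, and that carried no listed H3K4me3 in either line. They were chosen by overlap of the deposited peak lists: a row of the mutant rescue WDR5 list on chromosomes 1 to 19 was taken when it shared no base with any row of the WT rescue WDR5 list or of either H3K4me3 list. The 23087 regions were 86.5% of the 26691 autosomal rows of the mutant rescue WDR5 list. The other rows of that list were 2285 mutant-only regions on H3K4me3, 175 regions shared by both lines off H3K4me3 and 1144 shared regions on H3K4me3. Absence from the WT rescue list and absence of H3K4me3 are therefore properties of the choice and are not results.

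The study made chromatin immunoprecipitation sequencing (ChIP-seq) libraries with antibodies to WDR5 and to H3K4me3, with 1 library per antibody and line. Both lines were mouse embryonic stem cells with a GFP knock-in at Rx (Rx:GFP KI), kept in 2i+LIF, and both carried the double knockout of Wdr5 and p53. The first line was rescued with WDR5WT and the second with WDR5S91KY191F, here called WT rescue and mutant rescue; cells were crosslinked with 1% PFA for 10 minutes. The labels do not say whether either rescue line is a single clone or which promoter drives the rescue protein. Each group is a single library, so differences between the lines could not be checked against replicates, and no p-value is given.

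WDR5 is a WD-repeat protein that serves as a scaffold subunit of the KMT2/SETD1 complexes, the enzymes that methylate histone H3 at its lysine 4. Trimethylated lysine (H3K4me3) lies at the promoters of many active or poised genes. WDR5 also has partners outside these complexes. Transfer RNA genes are short genes that RNA polymerase III transcribes from promoter elements inside the gene. A peak caller run at a permissive threshold lists many places where a few more reads than the local average fell, so the strength of each region matters as much as its position.

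The promoter sequences of 4 genes show what the strongest promoter-borne regions look like and why some of them are hard to place. Each is the 250 bases before the gene's start from the RefSeq promoter table (GRCm38.p6, coordinates as in mm10), written 5′ to 3′ on the gene's strand, with the bases inside the WDR5 region in capitals. Gm21663 (chr5:25942367-25942616, minus strand), Gm35110 (chr13:46493810-46494059, minus strand) and Gm46044 (chr8:80592538-80592787, minus strand) hold the only 3 such regions whose −log10 q, the authors' significance after correction for all places tested, reached 2. Speer4d (chr5:15618849-15619098, plus strand), of the Speer family of testis genes, is shown for its likeness to Gm21663.
Gm21663: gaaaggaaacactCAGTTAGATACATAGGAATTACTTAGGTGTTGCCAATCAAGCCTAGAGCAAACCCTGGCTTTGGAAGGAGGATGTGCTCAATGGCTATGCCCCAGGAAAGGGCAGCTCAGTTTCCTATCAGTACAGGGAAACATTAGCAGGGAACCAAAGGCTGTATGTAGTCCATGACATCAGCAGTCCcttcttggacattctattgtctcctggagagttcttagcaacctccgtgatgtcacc
Speer4d: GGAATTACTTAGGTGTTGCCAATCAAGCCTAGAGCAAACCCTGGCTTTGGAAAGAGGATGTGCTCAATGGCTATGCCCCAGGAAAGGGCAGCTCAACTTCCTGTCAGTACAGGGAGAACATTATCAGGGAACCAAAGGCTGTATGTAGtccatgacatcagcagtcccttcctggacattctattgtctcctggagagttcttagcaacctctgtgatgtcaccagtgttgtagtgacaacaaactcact
Gm35110: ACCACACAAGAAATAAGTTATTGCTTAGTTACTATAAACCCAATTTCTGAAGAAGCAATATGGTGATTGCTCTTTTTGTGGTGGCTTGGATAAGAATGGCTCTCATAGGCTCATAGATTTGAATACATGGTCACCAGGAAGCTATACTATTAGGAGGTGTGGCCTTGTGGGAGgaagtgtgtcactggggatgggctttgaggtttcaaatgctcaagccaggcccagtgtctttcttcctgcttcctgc
Gm46044: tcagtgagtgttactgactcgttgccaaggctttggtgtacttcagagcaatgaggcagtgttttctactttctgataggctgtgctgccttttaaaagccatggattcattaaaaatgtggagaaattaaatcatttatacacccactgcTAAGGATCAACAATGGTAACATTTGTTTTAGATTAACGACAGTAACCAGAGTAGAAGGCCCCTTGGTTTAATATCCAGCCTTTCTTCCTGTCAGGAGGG
The region at Gm21663, a predicted protein-coding gene, was 180 bp wide with a fold of 3.93 and a −log10 q of 3.43, and its summit lay 111 bases before the start. At Speer4d the region was 212 bp wide with a fold of 3.24 and a −log10 q of 1.44, and its summit lay 186 bases before the start. The 2 upstream sequences matched at 216 of 224 aligned positions (96.4%), although the genes lie in separate parts of chromosome 5. Their longest shared run, 52 bases, occurred in 8 of the 31396 autosomal promoter windows (0.0255%), all of them on chromosome 5, at Gm10220, Gm10471, Gm21083, Gm21680, Gm21698 and Speer4c besides this pair. Only 2 of those 8 windows held the summit of a mutant-only region off H3K4me3, and none of the 8 overlapped an H3K4me3 region. Reads from such near-identical copies cannot be told apart by sequence over the shared run, and how reads with several matches were placed is not given in the sources used here. Gm35110 and Gm46044 are long non-coding RNA genes, with folds of 3.74 and 3.16. Neither shared any comparable stretch with the other sequences printed. The longest of their best local alignments with these, Gm35110 against the reverse complement of Speer4d, matched at 31 of 48 aligned positions (64.6%).

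Most of the 23087 regions were weak calls. The fold, the authors' enrichment at a region's summit, had a median of 2.49, with the lowest at 1.29, the 99th percentile at 3.51 and the highest at 9.83. In 20441 regions (88.5%) the fold was under 3, in 58 it was at least 4 and in 10 at least 5. The fold values were few in kind: 1417 distinct values served all 23087 regions, the commonest, 2.57, was shared by 1837 of them, and the 10 commonest by 9102 (39.4%). Widths ran from 151 to 811 bp with a median of 192 bp, and 5268 regions (22.8%) were 151 bp wide, the narrowest width present. The −log10 q was 0 in 8553 regions (37.0%). It reached 2, that is a q of 0.01 or less, in 331 regions, called high-q regions here (1.43%; exact Clopper-Pearson 95% interval 1.28 to 1.60, which here and below covers counting error only).

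The share was higher in the other classes of WDR5 region. It was 12.9% (295 of 2285) in mutant-only regions on H3K4me3, 37.1% (65 of 175) in shared regions off H3K4me3 and 3.18% (178 of 5596; interval 2.74 to 3.67) in regions of the WT rescue list that were equally off H3K4me3 and absent from the mutant rescue list. The median folds were closer, at 2.5, 2.79 and 2.66. The WT-only value comes from a separate library of unknown depth, and q depends on depth. Read the other way, 331 of the 1241 high-q autosomal rows of the mutant rescue WDR5 list (26.7%) were mutant-only and off H3K4me3, against 86.5% of all its rows. When the rows were ranked by the authors' p, these regions made up 52.7% of the most significant decile and between 85.4% and 97.6% of each of the other 9 deciles.

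**Figure D1:**
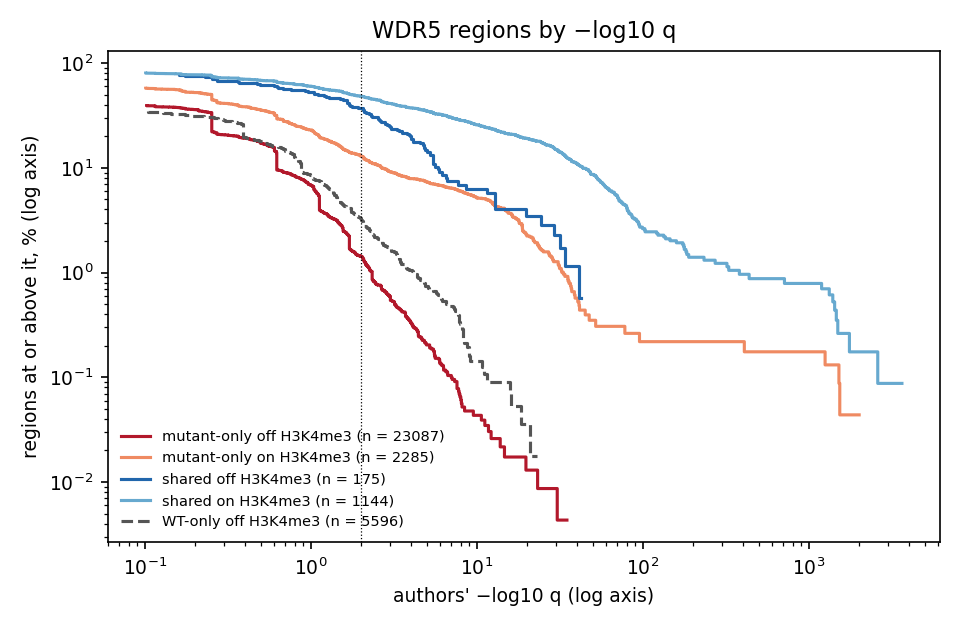
Share of WDR5 regions (vertical axis, %, log scale) at or above each value of the authors' −log10 q (horizontal axis, log scale), with 1 line per class and a dotted line at 2. Mutant-only regions off H3K4me3 fall to 1.43% at the dotted line, the lowest of the 5 classes, and their highest value is 34.8.

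The edge of the rule was narrow. Of the 23087 regions, 149 lay within 100 bp of a row that would have removed them, and 36 of the 3604 rows that were removed overlapped such a row by at most 20 bp. Just inside the rule were a region at chr11:3793242-3793392, which adjoined a row of another list (fold 2.37), the region over the transfer RNA gene n-TMcat10, which also adjoined one (fold 7.57), and a region at chr2:32961069-32961278 near Rpl12, at a distance of 2 bp (fold 2.62). Just outside were chr1:58943915-58944065, chr6:81909708-81909941 and chr11:35379869-35380077, which overlapped by 1, 2 and 3 bp and had folds of 2.81, 2.81 and 2.57.

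In position the regions had shares close to those of the whole span. They held 9.45 regions per Mb of the 2442 Mb spanned and covered 4827 kb, or 0.198% of it. Inside annotated genes lay 49.7% of them (interval 49.0 to 50.3), and genes take up 48.7% of the span. Within 1 kb of a gene boundary, meaning either annotated end of a gene since the gene table gives no strand, lay 1451 regions, or 6.28% (5.98 to 6.61), beside 6.31% of the span. Protein-coding gene boundaries had 2.75% of the regions and 3.06% of the span. The span in these comparisons includes H3K4me3 regions, where the rule allows no member. A region was counted when any of its bases fell inside a gene or window. Shares of the span open to the rule were not computed for genes or boundaries. In the same library 53.7% of the mutant-only regions on H3K4me3 lay within 1 kb of a gene boundary.

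Distance to H3K4me3 gave the same picture. Apart from overlap, which the rule forbids, 5.64% of the regions lay within 1 kb of an H3K4me3 region and 36.6% within 10 kb, beside 6.07% and 37.2% of the span off H3K4me3, and the median distance was 16790 bp. The distance to the nearest row of the WT rescue WDR5 list had a median of 97737 bp, and 8.09% of the regions were within 10 kb of such a row beside 7.96% of the span. WT-only regions off H3K4me3 lay nearer: 11.7% were within 1 kb and 51.8% within 10 kb of H3K4me3, with a median of 9231 bp. They also lay more often inside genes (57.9%, interval 56.6 to 59.2) and at gene boundaries (8.52%, interval 7.81 to 9.29). The intervals of the mutant-only and WT-only shares do not overlap, but each class comes from a single library, so the line and the library cannot be told apart.

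**Figure D2:**
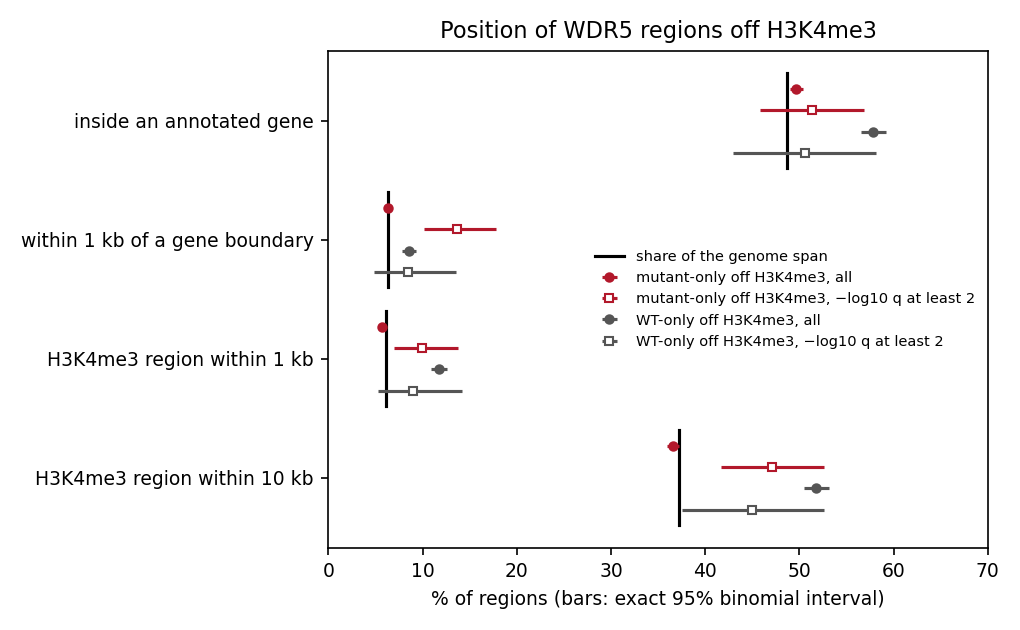
Percent of regions (horizontal axis) inside genes, within 1 kb of a gene boundary and within 1 or 10 kb of an H3K4me3 region, for mutant-only (red) and WT-only (grey) regions off H3K4me3, all of them (filled circles) and high-q ones (open squares); bars are exact 95% binomial intervals and black lines the share of the genome span. The filled red circles lie within about 1 percentage point of the black lines, and the open red square at gene boundaries stands at 13.6%.

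The high-q regions lay more often at gene boundaries than the bulk, in part at transfer RNA genes. Of these 331, 45 (13.6%, interval 10.1 to 17.8) lay within 1 kb of a gene boundary, and 33 (9.97%) within 1 kb of H3K4me3, with a median distance of 11419 bp. The share at gene boundaries was 5.97% in the 14035 regions with a −log10 q under 0.1, 6.54%, 6.25% and 6.90% in the next 3 strata up to 2, then 12.7% between 2 and 5 and 19.2% (9 of 47; interval 9.15 to 33.3) from 5 upward. The share thus stayed within 1 percentage point up to a −log10 q of 2 and was higher above it. Of the 9 boundary regions from 5 upward, 6 lay at transfer RNA genes, as did 11 of the 45 high-q boundary regions. Among WT-only regions off H3K4me3 the share at gene boundaries was 8.43% in high-q regions and 8.53% in the others. The share inside annotated genes of any kind moved less, from 49.2% in the lowest stratum to 57.4% (interval 42.2 to 71.7) in the highest. Inside protein-coding genes lay fewer of the high-q regions (34.4%, interval 29.3 to 39.8) than of the other members (40.9%, interval 40.3 to 41.6). High-q regions were also nearer to rows of the WT rescue WDR5 list, with 22.7% within 10 kb against 7.88% of the other members.

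Transfer RNA genes, which encode the adaptors of translation, carried 5 of the 10 regions with the highest fold. At 19 of 391 autosomal transfer RNA genes (4.86%, interval 2.95 to 7.48) a region lay within 1 kb of a boundary, beside a background of 3.26% of all 47042 annotated genes and 3.2% of 20665 protein-coding genes. The share is near the background; the strength was not, since 15 of the 19 genes had a high-q region. The 19 genes were served by 16 regions, of which 11 (68.8%, interval 41.3 to 89.0) were high-q, against 1.39% of the other 23071 regions. Their median fold was 3.11, against 2.49. This strength was not particular to regions off H3K4me3. At transfer RNA genes, 125 of 133 mutant-only regions on H3K4me3 and 66 of 67 shared regions on H3K4me3 were high-q.

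The region with the highest fold of all was centred on n-TCgca56, a cysteine transfer RNA gene on chromosome 11. It spanned chr11:97796890-97797322 with a fold of 9.83 and a −log10 q of 34.8, and the nearest H3K4me3 lay 1698 bp away. On chromosome 3, where transfer RNA genes for glutamine are spread among others, the regions over n-TQctg5, n-TQctg3 and n-TQctg4 had folds of 6.39, 5.44 and 5.34 with −log10 q of 30.5, 9.51 and 12.2, and lay 65, 700 and 89 bp from H3K4me3. On chromosome 13, in the cluster that also holds histone genes, the region over n-TMcat10, a methionine transfer RNA gene, had a fold of 7.57 and a −log10 q of 23.2. The next were a region at the tyrosine genes n-TYgta3, n-TYgta4 and n-TYgta5 (fold 4.30), a region at n-TFgaa2 and n-TKctt30 on chromosome 19 (3.71), and those at n-TYgta6 (3.12), n-TQctg10 (2.99) and n-TKctt24 (2.86). The genes with a region were 4 each for lysine, glutamine and tyrosine, 2 for cysteine and 1 each for glutamate, phenylalanine, glycine, leucine and methionine.

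The classes of the mutant rescue WDR5 list on H3K4me3 lay at more of these genes, and the other classes off H3K4me3 at fewer. Of the 391 genes, 277 had some row of the mutant rescue WDR5 list within 1 kb, and only 14 had none other than a mutant-only region off H3K4me3. Mutant-only regions on H3K4me3 lay at 169 transfer RNA genes (43.2%) and shared regions on H3K4me3 at 114 (29.2%). Shared regions off H3K4me3 lay at 1 (0.256%), and WT-only regions off H3K4me3 at none, which allows up to 0.939%. Of the 16 regions, 8 lay within 1 kb of H3K4me3 and 14 within 10 kb, against 5.64% and 36.6% of all 23087 regions. Their median distance to it was 956 bp.

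Protein-coding genes had regions near their ends about as often as annotated genes of all kinds. Within 1 kb of a boundary, 662 of 20665 genes (3.2%) had 1 or more of these regions, beside 3.26% of all 47042 annotated genes. A high-q region lay there at 17 protein-coding genes (0.0823%). The share was 2.66% among the 14646 genes with H3K4me3 at a boundary and 4.54% among the 6019 without it, a split that the rule itself favours because it removes regions on H3K4me3. The highest folds were at Vmn1r104, a vomeronasal receptor gene (fold 4.45, −log10 q 4.43), Gm3278 on chromosome 14 (4.21), Gm21663 (3.93), Defa40, a defensin gene (3.80), and Ceacam20, a cell adhesion gene (3.78). They were followed by Gpr31b, a receptor gene (3.74), Cxcl13, which encodes a chemokine that attracts B cells (3.73), Gm3739 (3.68), Slc8a1, which encodes a sodium and calcium exchanger (3.63), and Ppp1r1c, which encodes a phosphatase inhibitor (3.61). None of the 10 is on the lists of KMT2/SETD1 subunits or pluripotency genes.

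By family, the shares at gene boundaries were set beside the 3.2% of protein-coding genes. That value lay below the intervals of olfactory and vomeronasal receptors and inside those of the other families of the plot by gene list. Few olfactory (41 of 1104) and vomeronasal (13 of 352) receptor genes had H3K4me3 at a boundary, however. The 4.54% of protein-coding genes without H3K4me3 at a boundary lay inside the intervals of both receptor families. Olfactory receptors, the large family of odour receptors, had a region at 49 of 1104 genes (4.44%, interval 3.30 to 5.83). None of the 49 had a high-q region, beside 17 of the 662 protein-coding genes with a region. The highest folds among the 49 were 3.06 at Olfr1129 and 3.04 at Olfr1295, Olfr1350 and Olfr552. Vomeronasal receptors, which detect pheromones, had 21 of 352 (5.97%, interval 3.73 to 8.98), with a high-q region at 1, Vmn1r104. Zinc finger genes of the Zfp series had 16 of 386 (4.15%), with a high-q region at 1, Zfp980 (fold 2.95, −log10 q 3.94). Keratins and keratin-associated proteins had 4 of 109, led by Krt33b (fold 3.49), and Hox genes 1 of 39, at Hoxc13 (fold 2.77).

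Genes for ribosomal proteins, histones, small nucleolar RNAs and microRNAs had no high-q region at a boundary. Only 1.43% of all 23087 regions were high-q and 88.5% had a fold under 3, so weak regions do not set these families apart. Cytosolic ribosomal proteins had 6 of 79 (7.59%, interval 2.84 to 15.8), with folds of 2.97 at Rpl35a and Rpl18, 2.62 at Rpl12 and 2.33 at Rpl23a, and no high-q region. Mitochondrial ribosomal proteins had 4 of 78, with folds from 3.28 at Mrpl1 to 2.20 at Mrpl27. Histone genes had 1 of 72, at H2bc3 (fold 2.19). Small nucleolar RNA genes had 2 of 128, at Snord42a (fold 2.33), through the same region as Rpl23a, and Snora33 (2.21). MicroRNA genes had 29 of 1090 (2.66%), again with no high-q region; Mir299a, Mir299b and Mir379, in a cluster of imprinted microRNA genes on chromosome 12, shared a single region of fold 2.81.

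**Figure D3:**
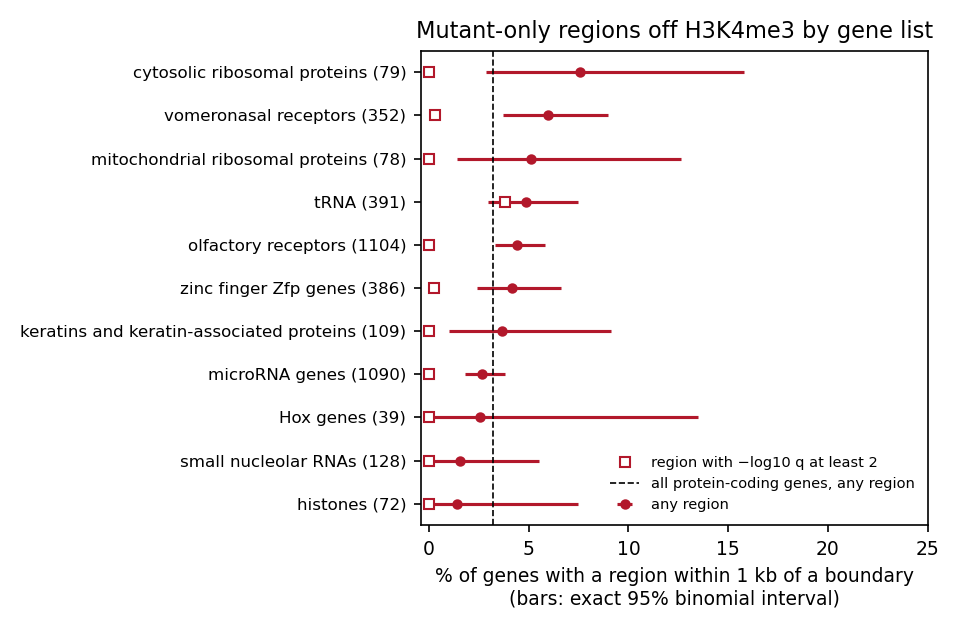
Percent of the genes of each list (number in brackets) with a mutant-only region off H3K4me3 within 1 kb of a boundary; filled circles count any region, with exact 95% binomial intervals, open squares count high-q regions, and the dashed line marks the 3.2% of all protein-coding genes. In the transfer RNA list the open square (3.84%) stands close to the filled circle (4.86%); in the other lists it is at or near 0.

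Inside genes, the number of regions followed gene length. At least 1 region lay inside 4856 of 20665 protein-coding genes (23.5%). The share rose from 3.08% of genes under 10 kb to 2749 of 11010 at 10 to 100 kb, 79.5% at 100 to 500 kb and 214 of 216 (99.1%) at 500 kb or more. Per Mb of gene the count was far steadier, at 7.75, 9.35, 9.92 and 9.51 regions, with 9.56 over all of these genes and 9.45 over the whole span. Only 9 genes held 20 or more regions.

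The genes with the most regions were among the longest in the genome, and several of them lie on chromosome 8. Macrod2, an ADP-ribose hydrolase gene, held 29 over 1998 kb, Cntn5 (contactin 5, a neuronal adhesion protein) 25, Csmd1 25, Fhit 24 over 1612 kb, Lsamp 23, Marchf1 22, Nrg1 (neuregulin 1) and Sgcz (a sarcoglycan) 21 each, Lrp1b 20 and Galntl6 19. Per 100 kb these ran from 0.972 in Lrp1b to 2.57 in Marchf1, all above the 9.56 per Mb of all protein-coding genes. Csmd1, Marchf1, Nrg1, Sgcz and Galntl6 lie on chromosome 8, which held 12.1 regions per Mb against 9.63 on the median chromosome. In 8 of the 10 no region was high-q; Lsamp had 1 such region and Sgcz 2. Among genes of at least 100 kb the highest densities were 5.42 per 100 kb in Ppp1r1c (6 regions), 5.20 in Myo5a, a myosin motor gene (8 regions), 4.91 in Pik3cb, a lipid kinase gene, 4.54 in Plekhh2, 4.50 in Tmprss11f and 4.43 in Gm26650. Gm26650, on chromosome 14, was alone among the 10 densest genes in having high-q regions, 3 of its 8. Fam184a, Boll, Abi1 and Atp8b4 completed the 10, at 4.23 to 3.90 per 100 kb.

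**Figure D4:**
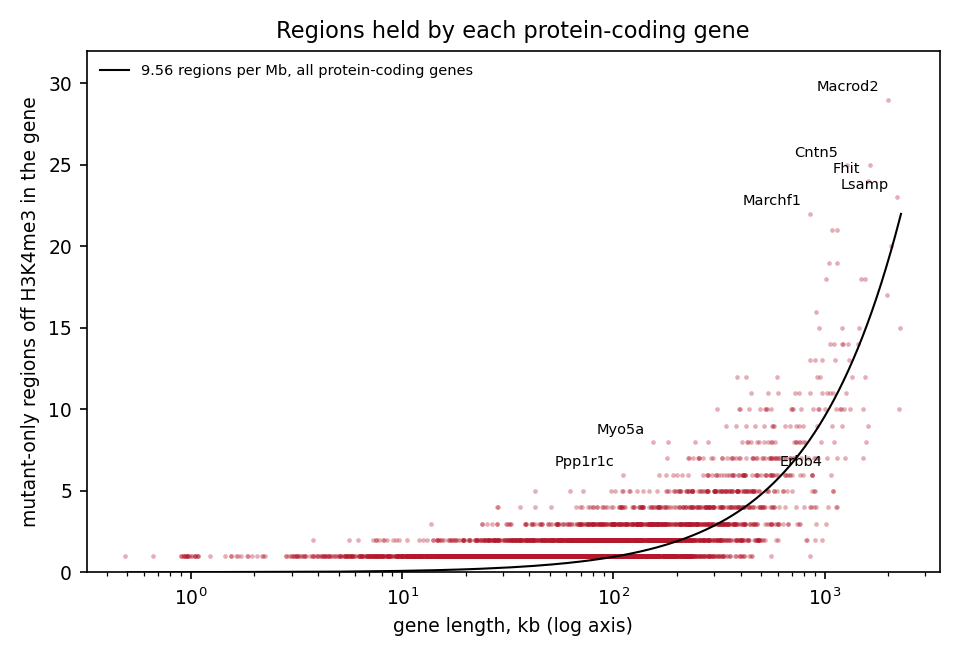
Number of mutant-only regions off H3K4me3 inside each protein-coding gene that holds any (vertical axis) against gene length in kb (horizontal axis, log scale); each point is a gene, and the black curve is 9.56 regions per Mb. Genes with 20 or more regions, such as Macrod2 with 29, are among the longest, and Marchf1, with 22, stands above the curve.

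Lists of long genes followed the same density. Neuronal adhesion and synapse genes, a list of very long genes, held a region in 49 of 50, with 537 regions in all or 9.09 per Mb of gene. Among them Erbb4, the receptor for neuregulins, had the region with the highest fold inside any protein-coding gene, at chr1:69070216-69070495, with 5.62, a −log10 q of 8.42 and no H3K4me3 within 35086 bp. Lsamp (fold 4.70, −log10 q 5.53), Nrg3 and Pcdh15 (3.74 each) came next. Genes at common fragile sites, places where chromosomes tend to break under replication stress, held a region in 19 of 19, with 216 regions or 10.1 per Mb, led by Wwox (fold 3.63, −log10 q 3.26) and Macrod2 (3.51).

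Genes that define the state of these cells and of its derivatives held no high-q region in their bodies. Only 1.43% of all 23087 regions were high-q and each list held 1 to 11 regions, so this absence does not set these genes apart. The shares of these lists lay on both sides of the 23.5% of all protein-coding genes. Naive pluripotency genes had 3 of 25, inside Tfcp2l1 (fold 3.01), Nr5a2 (2.58) and Tet1 (2.07), or 4.56 regions per Mb of gene beside 9.56 over all protein-coding genes, and formative genes 1 of 13, Lin28b (2.46). Eye field and neuroectoderm genes had 2 of 19, Pax6 (2.51) and Mitf (2.25), and mesoderm genes 2 of 18, Pdgfra (2.66) and Gata4 (2.43), with 4 regions or 14.3 per Mb. Endoderm genes had 7 of 12 (58.3%, interval 27.7 to 84.8), with 11 regions or 20.3 per Mb of gene, among them those in Hnf4a, Dab2 (2.74) and Gata6 (2.57). KMT2/SETD1 complex subunits had 5 of 20, among them Ncoa6 (2.55), Dpy30 (2.53), Kmt2c (2.42) and Rbbp5 (2.27). Targets of p53 had 2 of 24, Polk (2.86) and Apaf1 (2.27), and fibroblast markers, which could mark feeder cells, 4 of 13, led by Prrx1 (3.24), with 7 regions or 18.2 per Mb. Density was 1.88 per Mb for formative genes and 6.21 for eye field and neuroectoderm genes. It was 6.79 for KMT2/SETD1 subunits and 3.50 for p53 targets. Densities, too, thus lay on both sides of 9.56, and all of them rest on 1 to 11 regions a list. H3K4me3 lay at a boundary of 23 of the 25 naive pluripotency genes and of 7 of the 13 fibroblast markers. A WDR5 region in a gene says nothing of its expression, which was not measured here.

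Promoter windows were counted by the summits they held, and the rule itself removes regions on H3K4me3, which 16385 of these windows overlap. Of 31396 autosomal RefSeq promoter windows (250 bases before to 50 after a gene's start; 18 chromosomes, since windows of chromosome 18 were not used here), 57 held the summit of a region (0.182%). All promoter windows together take up 0.354% of the span and held 55 of the 23087 regions (0.238%). The first share includes the windows on H3K4me3, so it is not a like-for-like value for the second. The 57 windows belonged to 24 protein-coding and 31 long non-coding RNA genes, and 5 of the 57 overlapped H3K4me3 elsewhere in the window. Their median number of CG pairs was 3 (interval of the median 2 to 3) and their median GC content 47.0%. Among the 15011 windows off H3K4me3, 52 held a summit (0.346%), and the share of the span in these windows was not computed. Base composition was close to that of these 15011 (3 and 46.3%) and unlike the 271 promoters with a mutant-only region on H3K4me3 (30 and 68.0%).

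Searches for 3 short motifs gave counts too small to order against the other promoters. The E-box CACGTG, the site of Myc-type factors, searched on both strands, was in 4 of the 57 windows (7.02%, interval 1.95 to 17), beside 7.14% of all promoters, 4.19% of promoters off H3K4me3 and 15.5% of promoters with a mutant-only region on H3K4me3. ACTACAA, the core of a promoter element bound by the zinc finger protein Zfp143, also searched on both strands, was in 4 of 57 (7.02%, same interval), beside 3.32% of all promoters, and 2 of these were the near-identical pair Gm21663 and Speer4d. GGTTCGA, from the internal promoter of transfer RNA genes, likewise on both strands, was in 0 of 57, which allows up to 6.27%, beside 0.889% of all promoters. A match describes the sequence only.

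Along the genome the regions were spread widely, with a median of 32333 bp from a region to its nearest neighbour and 20.8% of them within 10 kb of another. The median chromosome held 9.63 per Mb. Chromosome 8 was highest, at 12.1 per Mb, followed by chromosomes 14 (10.4), 16 (10.3), 13 (10.2) and 1 (10.1), and chromosomes 18 (7.89) and 19 (7.11) were lowest. Chromosome 8 also led for WT-only regions off H3K4me3, at 4.10 per Mb against a median of 2.15. In H3K4me3 regions chromosome 11 came first (46.9 per Mb) and chromosome 8 next (43.0 per Mb); chromosome 11 had 8.17 mutant-only and 2.87 WT-only regions off H3K4me3 per Mb. Whether chromosome 8 has the same copy number as the others in these cells was not tested.

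**Figure D5:**
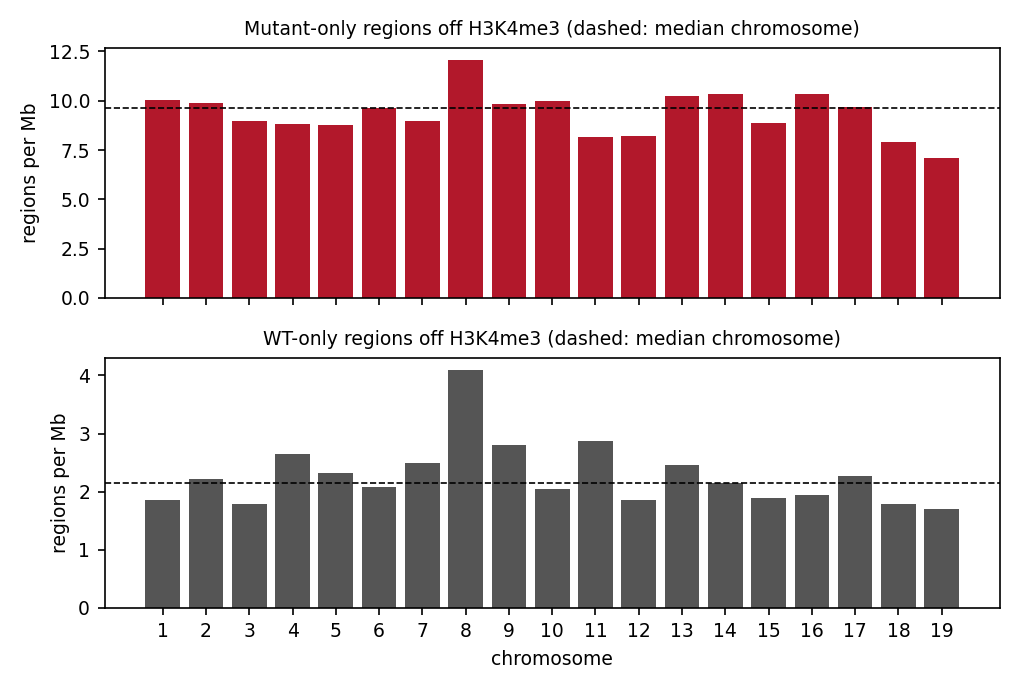
Regions per Mb (vertical axes) on each of the 19 autosomes for mutant-only regions off H3K4me3 (upper panel) and WT-only regions off H3K4me3 (lower panel); dashed lines mark the median chromosome. Chromosome 8 is the tallest bar in both panels, at 12.1 and 4.10.

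The 3 places with the most regions within 100 kb were on chromosomes 12 and 8. The first, at chr12:115556361-115656136, lies among the variable segments of the immunoglobulin heavy chain locus, including Ighv8-11 and Ighv1-66, and held 10 regions, 1 of them high-q. The others, at chr8:6233610-6327661, with no annotated gene, and chr8:53403323-53475325, at Gm39179, held 9 each and no high-q region. Of the next places, the 8 regions at chr5:14907548-14996969, around Speer4e, included 5 high-q ones; this place was singled out after its values were seen.

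Some high-q regions lay close together. Windows of 1 Mb with at least 4 high-q regions, a rule chosen after the values were seen, numbered 13. Over 0.532% of the span, they held 229 of the 23087 regions (0.992%) and 82 of the 331 high-q ones (24.8%), a concentration that the choice of windows itself brings about. They hold 472 annotated genes. Of these, 250 (53%) have Gm names, beside 42.8% of all 47042 autosomal genes. Vomeronasal receptor genes or pseudogenes were 33 (6.99%, beside 1.32%), Zfp genes 24 (5.08%, beside 0.863%) and Speer genes 5 of the 15 on the autosomes.

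The clusters differed in the genes they hold. On chromosome 14, 3 windows with 83 Gm genes held 61 regions, 29 of them high-q, up to a fold of 4.91 and, at Gm31035 and Gm3696 (chr14:7084384-7084655), a −log10 q of 10.6. On chromosome 5, 2 windows around the Speer genes held 29 regions, 13 of them high-q, up to a −log10 q of 14.6 at Gm21847 (chr5:15513262-15513427, fold 4.24). On chromosome 8, the window that holds Gm21119 had 21 regions, 10 of them high-q, up to a −log10 q of 11.7 (chr8:20619937-20620104, fold 4.47). A region nearby, at chr8:20592070-20592279, had a −log10 q of 11.2 with a fold of only 2.25. On chromosome 4, 3 windows with 16 Zfp genes held 13 high-q regions of 50, and 1 window on chromosome 7 with 14 vomeronasal genes held 5 high-q regions of 16. On chromosome 13, 2 windows with 13 vomeronasal genes held 8 of 38, and the window with 52 transfer RNA genes held 4 of 14.

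Other classes of WDR5 region, which were not used to find the windows, were counted in them too. The windows held 32 of the 178 high-q WT-only regions off H3K4me3 (interval of the share 12.6% to 24.4%), against 1.73% of all WT-only regions off H3K4me3. Of mutant-only regions on H3K4me3 they held 64 of 295 high-q ones (21.7%) and 4.95% of all. Of shared regions they held 7 of 65 high-q ones (10.8%) and 11.4% of all off H3K4me3, and 4.36% of high-q ones and 3.32% of all on it, so for the shared classes the share of high-q regions was close to that of all regions. Of H3K4me3 regions they held 995 of 83121 (1.20%). Regions in duplicated sequence are uncertain in position, and the part that copy number or read placement has in these values was not tested.

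Outside the clusters and the transfer RNA genes stood a few strong, isolated regions. The second highest fold, 8.42 with a −log10 q of 19.7, was at chr1:81375509-81375718, which lies 7803 bp from Nyap2, a gene of neuronal signalling, and 44007 bp from H3K4me3. A region at chr2:171395694-171395974 had a fold of 7.02 and a −log10 q of 13.8; it lay 31971 bp from Gm35434, 515919 bp from Dok5, the nearest protein-coding gene, and 97526 bp from H3K4me3. Regions at chr17:83256656-83256827 and chr8:31420324-31420493 had folds of 5.38 and 5.27, and lay 31587 bp from Pkdcc and 155040 bp from Fut10, the nearest protein-coding genes. None of these 4 lay inside an annotated gene.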

How the data were processed

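ChIP-seq with 2 antibodies in 2 lines gave the 4 deposited peak lists used. Sequencing of input DNA was not analysed here. The authors worked on mm10 with Picard, SAMtools, MACS2 2.1.2 and BWA 0.7.17-r1188, per the submitters' processing notes; settings, control and handling of reads with several matches are not given in the sources used here. Each deposited row holds a position, a linear fold (a ratio of signal to background at the summit), a −log10 p and a −log10 q, all the authors' values for 1 library; the deposited score was not used. The smallest deposited −log10 p was 2.00. Fold and q served to describe, rank or filter rows within a list. Read depth is unknown, so no interval covers it.

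Rows were compared between lists at a minimum overlap of 1 bp, and no rows overlapped within a list. Genes came from a RefSeq table of GRCm38.p6, without strand, with the coordinates of mm10. Promoter windows were matched by position and their sequences credited to RefSeq. Sequences were compared by local alignment (Biopython 1.88). Code was tested on simulated data. Python 3.11.15, numpy 2.4.6, pandas 2.3.3, scipy 1.17.1 and matplotlib 3.10.9 were used.

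The members and the 21 gene lists were chosen with earlier results of these data known, and the name patterns of the histone and transfer RNA lists were corrected after the files were read. The genes and regions named were the 10 highest by fold and by q, the 10 protein-coding and 10 transfer RNA genes with the highest fold at a boundary, the 10 with most regions inside and the 10 densest of at least 100 kb, up to 4 of each list, the 3 on each side of the rule's edge, the 3 densest places and the 6 promoters with the highest q; any other is said to have been singled out later. Single libraries allowed no test between the lines.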

Additional observations from a re-analysis of the deposited data

How the results depend on the processing

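Read depth, which is unknown, and the permissive threshold of the lists limit every count, and the settings below describe the same 4 libraries. Over 11 settings, 9 planned and 2 chosen after seeing the data, 42 of 81 recomputed values stayed within the main value's interval (for counts, within 1.5 times) and 39 moved. Restriction to high-q regions (−log10 q of 2 or more) left 331 regions, 13.6% at gene boundaries, a median distance to H3K4me3 of 11419 bp and 17 protein-coding genes. Restriction to a −log10 p of at least 3 left 14100 regions, 2.35% of them high-q, and 413 protein-coding genes. With the mutant rescue WDR5 list shortened to the 11095 rows that the WT rescue list has, 8671 regions remained, with 3.82% high-q, 6.71% at gene boundaries, 15992 bp and 270 protein-coding genes. With a reciprocal overlap of 50% required, these values were 2.61%, 11.4%, 13676 bp and 1907 protein-coding genes, and the transfer RNA genes rose from 19 to 197. Under that setting, rows enter that overlap H3K4me3 or the WT rescue WDR5 list by less than the reciprocal share. Narrow rows inside a broad H3K4me3 region are among them. With the other lists widened by 1 kb, 5.55% lay at gene boundaries, the distance was 18656 bp and 10 transfer RNA genes remained. With only H3K4me3 rows of a −log10 q of at least 2 counted, the distance was 17545 bp. A gene window of 2.5 kb gave 13.5%, 37 transfer RNA genes and 1551 protein-coding genes, and all annotated genes gave 1532. Without the 13 windows rich in high-q regions, the high-q share was 1.09%. Of 29 values of other results, 16 stayed and 13 moved. No paired analysis was possible because each group is a single library.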

Other observations

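Sex chromosomes lay outside the rule. On chromosome X, 55 of 104 rows of the mutant rescue WDR5 list overlapped no row of the other 3 lists, or 0.322 per Mb, against 9.45 per Mb on the autosomes. The WT rescue list was sparse there too, with 68 rows, 30 of them WT-only and off H3K4me3 (0.176 per Mb). H3K4me3 did not thin out to the same extent, with 2223 and 2318 rows on chromosome X in the WT and mutant lists. Chromosome Y gave 4 such rows of 19 and the unplaced scaffolds 37 of 74, of which 6 were high-q.

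The regions at transfer RNA genes were wider than the bulk, while the high-q regions as a whole were not. The 16 regions at transfer RNA genes had a median width of 283 bp, against 192 bp over all 23087. The 331 high-q regions had a median width of 184 bp, so significance and width did not rise together.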
